A study of Mus musculus with 786 samples.

Results

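The cells described here are single haematopoietic precursors from mouse bone marrow that carried transcripts of several mitotic genes at once. A cell was a member when at least 3 of 15 mitotic genes, called the rule genes below, reached an FPKM (fragments per kilobase of transcript, scaled to the mapped fragments of the library) of 1, the level taken here as detected. Cells were wells labelled with a cell count of 1 in which at least 1000 genes were detected. By this rule 79 of 373 cells were members, and the other 294 cells served for comparison. Because measured values of the 15 genes chose the members, these genes are described below without a test.

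The study sorted C57BL6 marrow of mice 6 to 8 weeks old into haematopoietic stem cells (HSC, CD48- CD150+ CD135- CD34-) and the first multipotent progenitors (MPP1, CD48- CD150+ CD135- CD34+), and sequenced single cells by Smart-seq in plates of 96 wells. Among them were 3 HSC plates and 2 MPP1 plates from normal mice, and 1 HSC plate and 1 MPP1 plate from bled mice. The third HSC plate was captured on a Fluidigm C1 instrument with RNA spikes, and the note on its mice mentions bled as well as normal animals. The labels give no number of mice and no bleeding schedule, so p-values over plates measure the spread between plates, which may be technical in part. In addition, 18 sorted populations of 1000 cells each were sequenced in bulk, with 1 library per population.

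A dividing cell copies its DNA in S phase, then assembles a spindle and separates its chromosomes in mitosis. Cyclins A and B with the kinase Cdk1 drive entry into mitosis, the Aurora and Polo kinases build the spindle, the Bub proteins hold back separation until every kinetochore is attached, and Cdc20 with the ubiquitin-conjugating enzyme Ube2c releases it. Most of these genes are transcribed late in the cycle under the DREAM and MuvB complexes, which bind a promoter element called CHR, often beside CCAAT boxes bound by NF-Y, while many S-phase genes carry E2F sites. Long-term stem cells of adult marrow are known to be mostly quiescent.

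Promoter stretches of rule genes and of genes called higher in the members are printed to show these elements. Each of these genes was detected at a higher share in members than in other cells, though not in all members. Each stretch holds the 150 bases before the RefSeq gene start (build GRCm38.p6), and capitals mark TTTGAA (the CHR letters), CCAAT and the E2F letters TTTCGCGC or TTTGGCGC on either strand, so TTCAAA and ATTGG are the same elements read on the other strand. Cdk1 encodes the mitotic kinase, Top2a the DNA topoisomerase that untangles chromosomes, Cdc20 the activator of the anaphase-promoting complex and Ube2c its partner enzyme. Kif11 encodes the kinesin that pushes spindle poles apart, and Ckap2l a spindle protein.
Cdk1, chr10:69352913-69353062 (minus strand): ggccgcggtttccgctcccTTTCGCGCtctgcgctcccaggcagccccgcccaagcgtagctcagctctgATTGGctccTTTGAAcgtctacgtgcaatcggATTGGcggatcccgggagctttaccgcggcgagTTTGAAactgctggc
Top2a, chr11:99024190-99024339 (minus strand): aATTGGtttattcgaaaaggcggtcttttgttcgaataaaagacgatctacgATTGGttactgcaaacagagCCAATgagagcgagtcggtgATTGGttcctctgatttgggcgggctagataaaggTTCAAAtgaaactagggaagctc
Cdc20, chr4:118437344-118437493 (minus strand): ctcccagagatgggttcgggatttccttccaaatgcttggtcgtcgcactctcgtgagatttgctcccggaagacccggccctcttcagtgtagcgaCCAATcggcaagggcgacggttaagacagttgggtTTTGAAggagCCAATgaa
Ube2c, chr2:164769779-164769928 (plus strand): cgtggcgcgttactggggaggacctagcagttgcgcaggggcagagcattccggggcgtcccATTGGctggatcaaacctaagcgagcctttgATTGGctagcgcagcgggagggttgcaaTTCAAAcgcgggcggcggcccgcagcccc
Kif11, chr19:37376232-37376381 (plus strand): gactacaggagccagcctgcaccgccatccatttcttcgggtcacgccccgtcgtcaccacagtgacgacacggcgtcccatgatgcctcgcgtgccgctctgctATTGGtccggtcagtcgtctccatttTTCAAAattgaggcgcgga
Ckap2l, chr2:129297213-129297362 (minus strand): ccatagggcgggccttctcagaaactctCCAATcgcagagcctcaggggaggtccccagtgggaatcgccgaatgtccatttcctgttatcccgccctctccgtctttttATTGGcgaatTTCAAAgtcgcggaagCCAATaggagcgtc

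In the Cdk1 stretch TTTGAA began 71 and 15 bases before the start, CCAAT 80 and 48 bases before it, and an E2F match 131 bases before it. The Cdc20 stretch held TTTGAA 18 bases before the start and CCAAT at 53 and 8 bases. The Kif11 stretch held TTTGAA at 19 bases and CCAAT at 45 bases. RefSeq windows of 300 bases, from 250 before to 50 after the start, were matched for 12 of the 15 rule genes. Entries for Ccna2, Aurkb and Tpx2 were not matched. Of these 12 windows 9 (75.0%) held TTTGAA and 11 (91.7%) held CCAAT, while 17.9% and 37.4% of all 32851 windows did. Those of Ccnb1, Birc5 and Bub1 held no TTTGAA, while each stretch printed above holds it. Among the windows of the genes called higher in the members (below), 72 of 181 (39.8%) held TTTGAA, against 12.4% of the windows of all tested genes. Members had been selected on mitotic genes, so this higher share goes with the choice. TTTGAA was in 24 of 32 windows (75.0%) of spindle genes and in 11 of 52 (21.2%) of DNA replication genes. The E2F letters showed the other order, with 2 of 32 windows (6.25%) of spindle genes and 13 of 52 (25.0%) of DNA replication genes. These matches describe letters and do not show that a factor binds.

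Members were found on all 7 plates, at very different shares. They made up 6 of 50 cells on HSC plate 1 (12.0%, exact 95% interval 4.53% to 24.3%), 19 of 53 on HSC plate 2 (35.8%, 23.1% to 50.2%) and 2 of 73 on HSC plate 3 (2.74%, 0.334% to 9.55%). They made up 10 of 51 cells on MPP1 plate 1 (19.6%, 9.82% to 33.1%) and 16 of 48 on MPP1 plate 2 (33.3%, 20.4% to 48.4%). After bleeding they were 3 of 48 HSC (6.25%, 1.31% to 17.2%) and 23 of 50 MPP1 (46.0%, 31.8% to 60.7%). These exact binomial (Clopper-Pearson) intervals cover counting error only. The 3 normal HSC plates spanned a wider range than the MPP1 plates of normal mice, and the intervals of HSC plates 2 and 3 did not overlap.

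The normal MPP1 plates held 26.5% ± 9.71 members (SD, n = 2) and the normal HSC plates 16.9% ± 17.1 (SD, n = 3). The difference of 9.61 percentage points was within the spread between plates (two-sided exact permutation test over plates, p = 0.5, with 0.1 the smallest p that 5 plates allow). It was 19.1 points without HSC plate 2 and 2.55 points without HSC plate 3. At 3 or more rule genes the bled MPP1 plate held the highest share of all 7 and the bled HSC plate the second lowest. This order changed with 6 or more rule genes, which 9 of 50 bled MPP1 cells had beside 12 of 53 on HSC plate 2 and 9 of 48 on MPP1 plate 2, and 3 of 48 bled HSC cells beside 3 of 50 on HSC plate 1. With 1 plate each, bleeding has no replicate check.

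Some wells labelled as empty also held rule genes, on the MPP1 plates. Of 150 wells labelled with no cell, 16 had 3 or more rule genes: 10 of 28 on MPP1 plate 1, 4 of 13 on MPP1 plate 2 and 2 of 29 on the bled MPP1 plate. None of the 80 such wells on the HSC plates did, the bled one included. In the 41 wells with no cell of the normal MPP1 plates Mki67 was detected in 22 and Top2a in 15, and no other rule gene in more than 7. Of the 16 wells, 11 had fewer than 1000 detected genes, the limit set for cells. The other 5 had more, up to 4384 in a well with 10 or more rule genes on MPP1 plate 2. On MPP1 plate 1 the share of such wells (35.7% of wells with no cell) was above the share of members among cells (19.6%), while on MPP1 plate 2 it was 30.8% beside 33.3%. What these wells held, and their part in the MPP1 shares, was not tested, so those shares rest on the well labels. Results are therefore given below also with 6 or more rule genes and without the normal MPP1 plates.

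**Figure D1:**
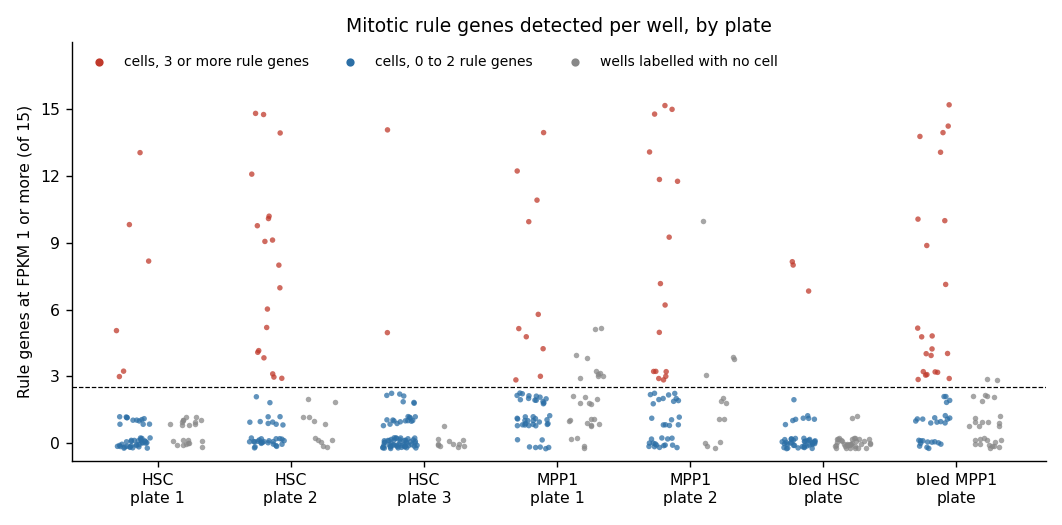
Rule genes detected per well (vertical axis, of 15) on each plate, with small random offsets to separate points; red and blue points are cells with at least 3 and with fewer rule genes, grey points are wells labelled with no cell, and the dashed line is the threshold. Cells above the line reach 15 rule genes on 3 plates, and grey points above it are seen on the 3 MPP1 plates.

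The members formed a range from a few to all 15 rule genes. Of the 373 cells 176 had none, 80 had 1, 38 had 2, 37 had 3 to 5 and 42 had 6 or more. At the threshold itself, the 38 cells with 2 rule genes carried a median of 9 (range 1 to 26) of 98 other mitosis genes, and the 20 cells with 3 carried 17.5 (4 to 38). Cells with 6 or more carried 56 (16 to 79), and cells with none 6 (0 to 17). The cells just inside the threshold were therefore intermediate in this count. Members were also richer in detected genes at large, with a median of 3404 against 2277 in the other cells, and on each plate the members' median was the higher one.

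Top2a was the rule gene detected in most members, 64 of 79 (81.0%), and it was also in 47 of 294 other cells (16.0%). By plate it was detected in 5 of 6, 13 of 19 and 2 of 2 members of HSC plates 1 to 3, in 8 of 10 and 14 of 16 of MPP1 plates 1 and 2, in 3 of 3 bled HSC and in 19 of 23 bled MPP1. Mki67, the proliferation antigen Ki-67, was detected in 61 members (77.2%) and 36 other cells (12.2%). Among other cells it was detected most often on MPP1 plate 2, in 9 of 32, and in none of 45 on the bled HSC plate. Those are also the 2 genes seen most often in the wells without a cell.

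The next genes are also rule genes, so their gap between members and other cells follows from the choice. Cdk1 was detected in 53 members (67.1%) and 17 other cells (5.78%). Ccnb2 (cyclin B2) was detected in 49 (62.0%) and 6 (2.04%), and Birc5 (survivin, of the chromosomal passenger complex) in 48 (60.8%) and 3 (1.02%). Where detected in members, the median level was 179 FPKM for Ccnb2, 134 for Birc5, 117 for Top2a, 48.1 for Cdk1 and 44.1 for Mki67. The highest single value of these 5 was 1594 FPKM, for Birc5. These 5 are the markers fixed for the label of cycling cells, and since the rule used all 5, their presence is no check of it.

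The spindle checkpoint kinases Bub1 and Bub1b were detected in 41 (51.9%) and 37 (46.8%) members and in none of the 294 other cells, which the rule limits to 2 rule genes each. Tpx2, which activates Aurora A at the spindle, was in 50 members (63.3%) and 10 others. Ccna2, Aurkb and Cdc20 were each in 31 members (39.2%), Ccnb1 and Ube2c each in 29 (36.7%). The least frequent were Plk1 in 20 (25.3%) and Aurka in 19 (24.1%). Plk1 was in 0 of the 37 members with 3 to 5 rule genes and in 20 of the 42 with 6 or more, while Top2a was in 25 and 39 of them.

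The members comprised 30 cells of the HSC gate and 49 of the MPP1 gate, with bled mice included. Top2a was in 23 of 30 HSC-gate and 41 of 49 MPP1-gate members, Mki67 in 23 and 38, and Cdk1 in 21 and 32. The widest gap was for Tpx2, in 23 of 30 (76.7%) and 27 of 49 (55.1%), and next for Bub1b, in 18 of 30 (60.0%) and 19 of 49 (38.8%). No test was made on these genes.

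DNA replication genes were frequent in members. Of 53 such genes, cells with 0, 1 and 2 rule genes carried medians of 6, 10 and 12. The 20 members with 3 rule genes carried 25.5, the 8 with 4 carried 29.5 and the 9 with 5 carried 37, while the 42 with 6 or more carried 27 (range 3 to 49). The members were also grouped by 4 of the rule genes, Plk1, Aurka, Cdc20 and Ccnb1, chosen after their values were seen. The 35 members with none of these 4 carried 33 replication genes at the median. The 17 with 1 carried 24 and the 27 with 2 or more carried 25. These groups also differed in rule genes, with medians of 4, 5 and 13, and in all genes detected, with 3136, 3220 and 3695. No test was made on this split.

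**Figure D2:**
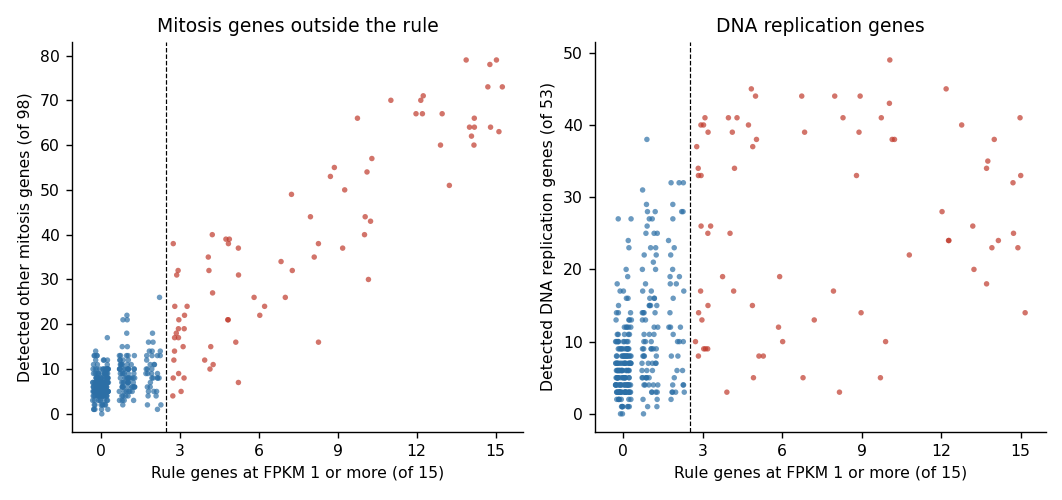
Each point is 1 of 373 cells; the horizontal axis gives rule genes detected (of 15, with a small random offset), the vertical axes give other mitosis genes (left, of 98) and DNA replication genes (right, of 53) detected, and red marks members. On the left the count climbs from a median of 6 in cells without rule genes to 56 in cells with 6 or more, and on the right members spread from 3 to 49.

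On each plate the members carried more replication genes than the other cells. The medians were 29.5 against 6 on HSC plate 1, 19 against 10 on HSC plate 2 and 13 against 5 on HSC plate 3. They were 23.5 against 11 on MPP1 plate 1, 21.5 against 9.5 on MPP1 plate 2, 41 against 7 in bled HSC and 38 against 9 in bled MPP1. The share of cells with 3 or more replication genes, the measure fixed for the test, was 100% in members and 95.9% in other cells over the 6 plates with at least 3 members, a difference of 4.13 points ± 4.06 (SD, n = 6; two-sided exact sign-flip permutation test, p = 0.125), so nearly every cell passed it. With 10 or more genes, a threshold chosen after seeing the data, the shares were 85.4% and 42.9%, and the difference of 42.5 points ± 18.6 (SD) was positive on 6 of 6 plates (exact sign-flip permutation test, p = 0.03125, the smallest that 6 plates allow). Against the 3 other cells nearest in detected genes, that difference was 12.6 points (exact p = 0.0625). Matched in the same way, the fixed measure of 3 or more genes differed by 0.35 points and was higher in members on 1 of 6 plates.

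Across 9097 genes outside the rule that were detected in at least 5% of cells, 196 were called higher in members (2.15% of those tested) and 33 lower (0.363%). The test was limma on 6 plate-wise differences of log2(FPKM + 1), each allowing for the number of genes detected in the cell, with Benjamini-Hochberg adjusted p under 0.05. HSC plate 3, with 2 members, did not enter. Of the 196 genes, 152 were higher on each of the 6 plates. With 6 or more rule genes 157 genes were called higher and 134 of them were among the 196, and without the normal MPP1 plates 132 were called and 116 were shared. Matching on genes detected gave 110 calls and leaving out HSC plate 2 gave 118. Of the 33 lower genes, 13 were shared with 6 or more rule genes and 22 without the normal MPP1 plates.

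The strongest of the higher genes encode parts of the spindle and kinetochore. Cdca8, which encodes borealin of the chromosomal passenger complex, was detected in 3 of 6, 14 of 19 and 2 of 2 members of HSC plates 1 to 3, in 6 of 10 and 10 of 16 of MPP1 plates 1 and 2, in 3 of 3 bled HSC and in 16 of 23 bled MPP1. In other cells of the same plates it was detected in 2 of 44, 4 of 34, 3 of 71, 1 of 41, 4 of 32, 1 of 45 and 2 of 27. The share was higher in members on each plate, and the difference allowing for genes detected was 3.40 ± 0.32 on the log2(FPKM + 1) scale (SE, limma adjusted p = 1.62e-06). Plate values ran from 2.43 in bled MPP1 to 4.43 on HSC plate 2.

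Kif11 was detected in 41 of 79 members (51.9%) and 8 of 294 other cells (2.72%). Its difference was 2.43 ± 0.25 (limma adjusted p = 2.94e-06), between 1.95 on HSC plate 2 and 3.23 on HSC plate 1. Ckap2l, in 45 members and 5 other cells, differed by 2.75 ± 0.29, and Nusap1, a microtubule bundling protein, in 43 and 8, by 2.59 ± 0.27. Spc24 of the Ndc80 kinetochore complex was in 56 members and 14 other cells and differed by 3.17 ± 0.36. Its plate values ran from 1.94 on MPP1 plate 2 to 6.66 in bled HSC, a plate with 3 members.

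The other genes of highest rank were Kif15, a kinesin (2.06), Pbk, a mitotic kinase (2.90), Cenpp of the centromere (1.83), Cdca3, which promotes mitotic entry (2.40), and Neil3, a DNA glycosylase (2.14). All 5 were higher on 6 of 6 plates, with Cdca3 lowest in bled HSC at 0.20. The detection filter ran over all cells together, and 9 of these 10 genes were detected in fewer than 5% of other cells, so they were tested only because members carried them. The same held for 86 of the 196 genes called higher and for 0 of the 33 called lower. With no filter limma called 0 genes in either direction (1385 at an unadjusted p under 0.05). In the wells with no cell of the normal MPP1 plates these 10 genes were detected in 1 to 7 of 41 wells. On the normal HSC plates they were detected in 0 to 3 of 44 wells.

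**Figure D3:**
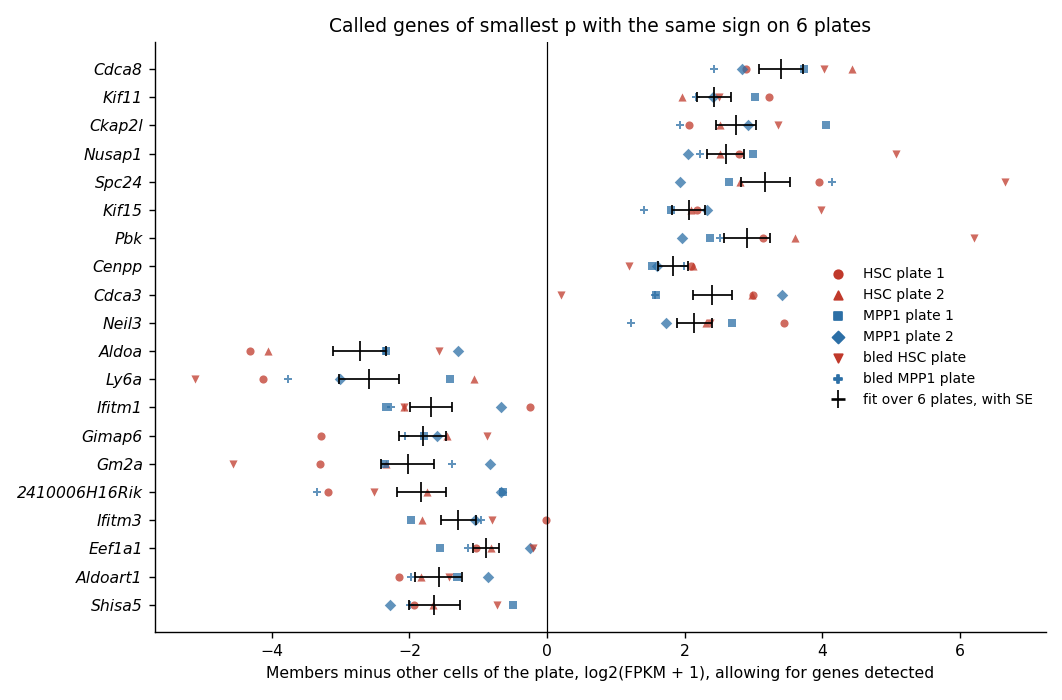
Difference between members and other cells of the same plate (horizontal axis, log2(FPKM + 1), allowing for genes detected) for the 10 called genes in each direction with the smallest p among those of the same sign on 6 plates; symbols are plates, red for the HSC gate and blue for MPP1, and black bars are the fit with its SE. The upper 10 genes lie right of 0 and the lower 10 left of it on 6 plates, as the choice requires, with bled HSC (3 members) often the farthest point.

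Mitotic lists were higher almost throughout. Of 30 spindle and kinesin genes 27 passed the detection filter and 25 were called higher, with a median difference of 1.62 beside 0.02 for all tested genes. Of 35 kinetochore and checkpoint genes 33 passed and 27 were called higher, with a median of 1.49. Nuf2, a partner of Spc24, differed by 1.92 ± 0.24 (limma adjusted p = 1.59e-05). Of 33 genes of mitotic entry and exit 27 passed and 17 were called higher, with a median of 0.95. Cks1b, which binds cyclin-dependent kinases, was detected in 65 members and 88 other cells and differed by 2.80 ± 0.41, and Fam64a differed by 2.05 ± 0.25. Members had been selected on genes of the same programme, so a high share among these lists goes with the choice. Some list genes also passed the filter only because members carried them, such as Nuf2, in 31 members and 2 other cells. Their number per list was not counted.

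Chromosome structure genes came next. Of 18 condensin and cohesin genes 8 were called higher (median 0.80). Esco2, which acetylates cohesin in S phase, differed by 1.70 ± 0.27, and the condensin genes Smc2, Ncapg and Ncapd2 by 2.23, 1.66 and 1.80. Smc2 was common at large, in 66 members and 93 other cells. Esco2 and Ncapg were each in under 5% of other cells, so they were tested only because members carried them. Matching on genes detected gave 5 calls in this list, and Ncapg was not among them (1.45, limma adjusted p = 0.0636).

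Of 53 DNA replication genes 52 passed the filter, 51 had a positive difference and 17 were called higher, with a median of 1.01. Asf1b, a histone chaperone, was detected in 44 members and 13 other cells and differed by 2.51 ± 0.36 (limma adjusted p = 9.35e-05). Its plate values ran from 1.44 on MPP1 plate 1 to 7.05 in bled HSC. The PCNA-associated factor 2810417H13Rik differed by 2.27 ± 0.34, Mcm10 of the replication fork by 1.42 ± 0.25, and Gmnn, the licensing inhibitor geminin, by 1.90 ± 0.34. By matching on genes detected the list had 4 calls and with 6 or more rule genes also 4, so this count changed with the allowance for depth and with the threshold of the rule. Pcna itself, in 63 members and 187 other cells, differed by 0.26 ± 0.40 (adjusted p = 0.868; chosen after its values were seen).

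Nucleotide supply had 4 of 22 genes called higher (median 0.46), all of them enzymes of deoxynucleotide synthesis. Rrm2, the regulated subunit of ribonucleotide reductase, was detected in 45 members and 19 other cells and differed by 2.76 ± 0.38 (limma adjusted p = 7.43e-05). Its values were 4.22 and 2.57 on HSC plates 1 and 2, 2.06 and 1.3 on the MPP1 plates, 7.00 in bled HSC and 3.39 in bled MPP1. Tk1 differed by 2.45, Rrm1 by 2.43 and Tyms by 1.66. Tyms has a near-identical pseudogene in the tables that was also called, so reads may be split between them.

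Repair genes were higher in 8 of 22 (median 0.47), with Rad51ap1 at 1.10, Brca1 at 0.94 and Exo1 at 0.81. These named genes were each in under 5% of other cells, so they were tested only because members carried them. The list had 2 calls by matching and 1 with 6 or more rule genes. By matching Rad51ap1 (limma adjusted p = 0.0665) and Exo1 (0.0834) lost the threshold, and Brca1 lost it in cells with 2000 genes (0.227) and without HSC plate 2 (0.147). Among 19 E2F and G1-S regulators 3 were called higher (median 0.20). These were E2f8, a repressor of the E2F family (1.38 ± 0.26), Rbl1, which encodes p107 (1.2 ± 0.26), and Ccne2, cyclin E2 (0.82 ± 0.21). E2f8, in 25 members and 5 other cells, also passed the filter only because members carried it. Ccne2 was at -0.079 with 6 or more rule genes. By matching, Rbl1 (0.74, limma adjusted p = 0.473) and Ccne2 (0.53, 0.403) were not called. The D-type cyclins were not called, with Ccnd1 at -0.50 ± 0.27, Ccnd2 at -1.38 ± 0.44 and Ccnd3 at 0.56 ± 0.34.

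All 50 histone cluster genes tested had a positive difference and 24 were called higher (median 0.85). Hist1h2ap, in 59 members and 119 other cells, differed by 2.57 ± 0.37 (limma adjusted p = 9.35e-05). Hist1h2ag, Hist1h2ah and Hist1h2ai differed by 1.95, 1.81 and 1.82. These genes are near-identical copies, so their values are uncertain one by one and the count does not stand for 24 independent genes. Outside the clusters Hmgb2, a chromatin protein, differed by 2.22 ± 0.39 and H2afx by 1.21 ± 0.26. Of 17 nuclear transport genes 3 were called higher, Rangap1 (1.46), Cse1l (1.44) and Nup107 (1.21). Matching left 0 of these.

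**Figure D4:**
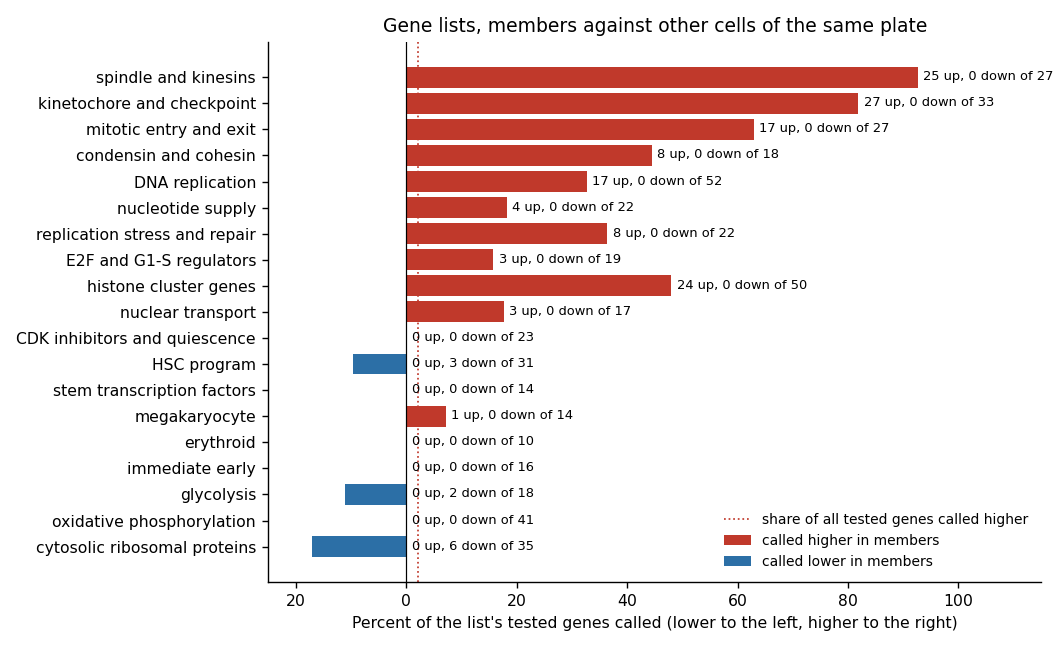
Percent of each list's tested genes called higher (red, right) or lower (blue, left) in members, with counts beside the bars; the dotted line is the share of all tested genes called higher, 2.15%. Spindle (25 of 27) and kinetochore (27 of 33) lists reach the highest shares, and ribosomal protein, glycolysis and stem cell lists have calls on the lower side. Some genes passed the detection filter only because members carried them.

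Genes of quiescence were not called in either direction. Of 23 inhibitors of cyclin-dependent kinases and quiescence genes limma called 0, with 1 higher and 2 lower at an unadjusted p under 0.05 and a median of -0.15. Cdkn1c, which encodes p57 and holds stem cells in rest, was detected in 26 of 79 members (32.9%) and 90 of 294 others (30.6%), a difference of -0.30 ± 0.34. Cdkn1b (p27) was at -0.46 ± 0.35 and Cdkn1a (p21) at 0.07 ± 0.28. The choice of these 3 followed their values, and the standard errors leave room for differences of either sign.

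Stem cell genes were lower in part. Of 31 genes of the HSC list 25 had a negative difference and 3 were called lower, with a median of -0.38. Ly6a, which encodes the sort antigen Sca-1, was detected in 3 of 6, 14 of 19 and 0 of 2 members of HSC plates 1 to 3, in 3 of 10 and 5 of 16 of MPP1 plates 1 and 2, in 1 of 3 bled HSC and in 10 of 23 bled MPP1. In other cells it was detected in 33 of 44, 23 of 34, 32 of 71, 19 of 41, 19 of 32, 33 of 45 and 18 of 27. The share was lower in members on each plate except HSC plate 2, and the difference allowing for genes detected was -2.58 ± 0.44 (limma adjusted p = 0.000684), negative on 6 of 6 plates. By matching on genes detected it was -1.77 (limma adjusted p = 0.145), and the list then had 1 lower call.

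The interferon-inducible membrane proteins Ifitm1 (-1.69 ± 0.30) and Ifitm3 (-1.29 ± 0.26) were the other 2 calls. They were detected in most cells of both kinds, Ifitm1 in 69 of 79 members and 276 of 294 others. Ifitm3 was not called by matching (-0.60, limma adjusted p = 0.228) or with no allowance for genes detected (-0.18, 0.786), and Ifitm1 was not called in cells with 2000 genes (-0.67, 0.424). Other stem cell genes were not called: Hlf was at -1.37 ± 0.42 (adjusted p = 0.102), Procr at -0.92 ± 0.34 (0.224) and Mecom at 0.21 ± 0.38 (0.885). Of 14 stem cell transcription factors 0 were called (1 lower at an unadjusted p under 0.05), with Lmo2 at -1.04 ± 0.33.

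The gene with the smallest p among those lower in members was Aldoa, a glycolytic aldolase, detected in 57 of 79 members (72.2%) and 265 of 294 others (90.1%). Its difference was -2.72 ± 0.38 (limma adjusted p = 8.20e-05), from -4.32 on HSC plate 1 to -1.29 on MPP1 plate 2. Its near-identical relative Aldoart1 was also called (-1.58 ± 0.34), and the reads of both may be shared. Of 18 glycolysis genes Ldhb (-1.3 ± 0.36, limma adjusted p = 0.0494) was the only other call, and the list's median was -0.09. Ldhb lost the threshold whenever 1 of the 6 plates was left out. Gimap6, a GTPase of immune cells, was at -1.81 ± 0.34, Gm2a, a lysosomal lipid-binding protein, at -2.03 ± 0.39, 2410006H16Rik at -1.83 ± 0.35 and Shisa5 at -1.64 ± 0.36. None of these 4 was called by matching on genes detected, where Gimap6 was at -0.94 (limma adjusted p = 0.346), Gm2a at -1.10 (0.257), 2410006H16Rik at -0.85 (0.26) and Shisa5 at -0.64 (0.507). Aldoa was called there, at -2.58 (limma adjusted p = 0.00572), and Aldoart1 was not (-1.51, 0.0796).

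Ribosomal protein genes leaned lower together. Of 35 cytosolic ribosomal protein genes 34 had a negative difference and 6 were called lower, with a median of -0.71. Rps9 was at -1.16 ± 0.25, Rpl4 at -0.89 and Rpl8 at -0.96. Eef1a1, a translation elongation factor detected in 373 of 373 cells, was at -0.88 ± 0.19. By matching Eef1a1 was at -0.39 (limma adjusted p = 0.0884), after rescaling at -0.40 (0.216) and with no allowance for genes detected at -0.33 (0.253), so its call was lost in each. When each cell was rescaled to the mean level of widely detected genes, 32 of 35 were still negative, the median was -0.41 and 0 were called. Without allowance for genes detected the median was -0.15 and 0 were called, and matching gave 2 calls.

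Markers of later lineages were found in both kinds of cells, at shares that varied with the lineage. Itga2b (CD41, an early megakaryocyte antigen) was the 1 called gene of 14 in the megakaryocyte list, detected in 23 members and 21 others, with a difference of 0.86 ± 0.22 (limma adjusted p = 0.0326). It was at 0.02 by matching (limma adjusted p = 0.984) and at 0.53 with 6 or more rule genes (0.622), so the list had no call in either. At least 1 of Pf4, Itga2b, Gp1bb and Gp9 was detected in 44 members (55.7%) and 104 others (35.4%), and 3 or more in 11 and 3. Of 10 erythroid genes 0 were called (2 higher at an unadjusted p under 0.05), with Gata1, the erythroid and megakaryocyte regulator, in 17 members and 14 others at 0.73 ± 0.22 (limma adjusted p = 0.0951). At least 1 of Klf1, Gata1, Epor and Car1 was detected in 27 members (34.2%) and 23 others (7.82%). These shares make no allowance for the members' greater number of detected genes.

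At least 1 of 4 lymphoid markers (Flt3, Il7r, Dntt, Rag1) was detected in 1 of 79 members and 32 of 294 others. This was nearly all Flt3, in 1 member and 31 others, which was not called (-0.59 ± 0.17, limma adjusted p = 0.0823). Il7r was in 0 members and 1 other cell, and Dntt and Rag1 were in 0 of both. Of 5 granulocyte and monocyte markers Mpo, Elane, Ctsg and Csf1r were listed at 0 in each member, while Prtn3 was in 47 members (59.5%) and 170 others (57.8%). At least 1 of 3 T and NK markers was in 2 members, of 4 neutrophil markers in 3, of 3 macrophage markers in 9 and of 3 mast cell and basophil markers in 3, and no member had 2 markers of any of these. Cd79b was the only B cell marker of 3 found in members, in 27 of them and in 76 others. Of 16 immediate early genes 0 were called (4 lower at an unadjusted p under 0.05), with Zfp36 at -1.31 ± 0.39 and a list median of -0.43. The immediate early list was at -0.10 after rescaling.

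The effect of membership differed between the HSC gate and the MPP1 gate for 1 of 9097 genes (0.011%; 479 at an unadjusted p under 0.05). That gene was Dgat1, which makes triglycerides, with a difference of -1.78 ± 0.28 (MPP1 minus HSC, limma adjusted p = 0.0205). It was detected in 2 of 6 and 5 of 19 members of HSC plates 1 and 2 and in 1 of 3 bled HSC. On the MPP1 plates it was in 0 of 10 and 0 of 16 members, and in 1 of 23 bled MPP1. In other cells it was in 1 of 44, 0 of 34, 1 of 45, 2 of 41, 2 of 32 and 0 of 27, in the same order. On HSC plate 3, which did not enter the fit, it was in 0 of 2 members and 5 of 71 other cells. The call rests on 8 HSC-gate members with the transcript, and it was lost without HSC plate 1, without either normal MPP1 plate and without the bled HSC plate. Over all plates Dgat1 was in under 5% of other cells, so it was tested only because members carried it.

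Bulk libraries, which the rule did not use, gave another readout of the rule genes. In bulk samples fewer dividing cells and less RNA per dividing cell cannot be told apart. Mki67 and Cdk1 were not analysed here in bulk. Of the other 13 rule genes 3 reached FPKM 1 in bulk HSC and 9 in bulk MPP1, with medians of 0.225 and 1.75 FPKM. Both populations carry the same CD34 label in the sample sheet (CD34+), which for HSC goes against the single-cell label. The counts were 10 in MPP2, 11 in MPP3 and 11 in MPP4, and 12 in ProEry (median 27.3 FPKM). The lowest were CLP Sca1 high with 2 and Mature Meg with 3, as in HSC. Levels also differed between the libraries at large. Of all 7621 tested genes in the bulk table, 10.1% were at least 1 log2 unit higher in Mature Meg than in bulk HSC. This share was 20.9% in MPP1, 22.3% in CLP Sca1 high and 37.4% in ProEry. The counts of rule genes make no allowance for it.

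Single genes departed from the order of the rule gene counts. Top2a was at 21.7 FPKM in bulk HSC and 6.87 in bulk MPP1, the reverse of the 13-gene median. Ccna2 was at 0.209 and 2.68, Ccnb2 at 1.17 and 3.73, Bub1b at 0.374 and 39.1, and Plk1 at 0.225 and 5.68. Birc5 stayed under 1 FPKM in all 18 populations although it was frequent in member cells. With 1 library per population there is no replicate check, and bulk and single-cell tables were made separately.

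Genes called higher in members were also compared between bulk libraries. Of the 196 genes, 176 are in the bulk table. Of these, 42 (23.9%) were at least 1 log2 unit higher in bulk MPP1 than in bulk HSC, beside 20.9% of all 7621 tested genes in the table. In MEP they were 68 (38.6%) beside 28.8%, and in ProEry 101 (57.4%) beside 37.4%. The MPP1 share was thus near the background, and the ProEry share above it in these single libraries. The gap was widest in ProEry and smaller in PreCFU-E (47.7% beside 41.3%) and CFU-E (39.8% beside 35.1%). The highest share was in GMP-7, with 58.0% beside 47.5%. MKP (29.5% beside 29.6%), preMegE (21.0% beside 24.3%), Mature Meg (7.95% beside 10.1%) and CLP Sca1 high (10.8% beside 22.3%) were below their background. The populations not named here were above theirs.

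**Figure D5:**
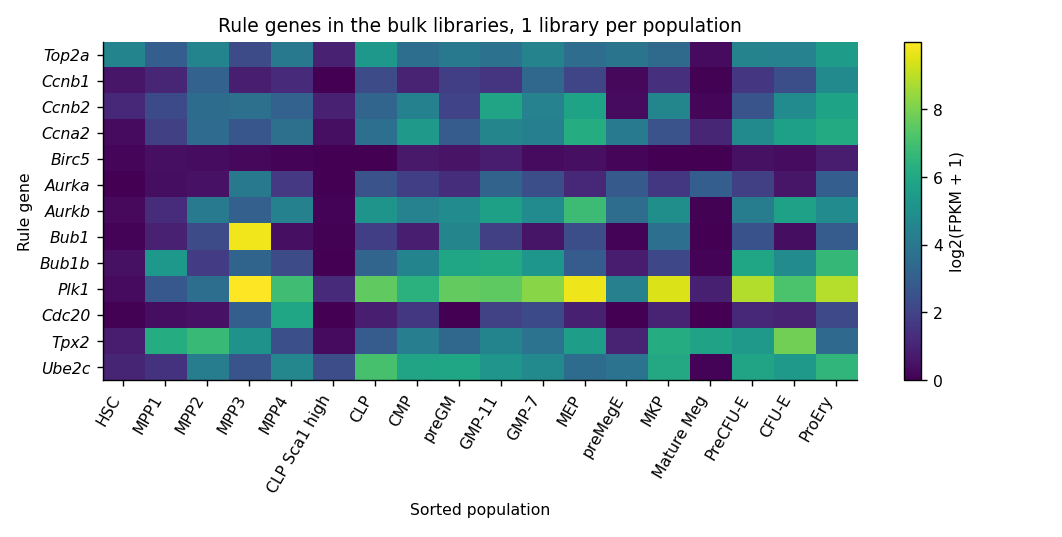
Level of 13 rule genes (rows) in 18 bulk populations (columns, 1 library each), as log2(FPKM + 1) by colour. HSC, CLP Sca1 high and Mature Meg are dark in most rows, with 3, 2 and 3 of 13 genes at FPKM 1 or more, and ProEry reaches 12.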

How the data were processed

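The authors deposited FPKM per gene and well in 3 single-cell tables and per population in 1 bulk table. Per the submitters' processing notes, TopHat 1.3.3, Cufflinks 1.2.1 and, for the third HSC plate, Bowtie2 2.2.1 were used with the mm9 build. The files hold no read counts, so depth per sample is unknown and no count test was made. HSC plate 1 was sequenced again as a repeat run of 96 samples, and its columns could be either run.

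Members and gene lists were chosen with earlier results of these data known. Levels were log2(FPKM + 1). On each plate with at least 3 members, a least-squares fit over cells gave the coefficient of membership beside log2 of the genes detected outside the rule. limma 3.58.1 (R 4.3.3, variance trend, plates weighted by precision) was fitted to these coefficients over 6 plates for genes detected in 5% of cells, with the 15 rule genes left out and p adjusted over all 9097 genes. Another fit compared the gates. The fit was tried on the other cells, with some drawn as members at random and shifts added to genes that many carried. That trial does not cover genes rare in other cells, and its outcome is not given here. Shares used exact permutation tests over plates. Named genes were up to 10 per direction with the smallest p, the same sign on each plate and adjusted p under 0.05, and up to 4 per list. Alternatives varied the depth allowance, pseudocount, filter, weights, rule and plates. Some members of these lists are not reported here by name.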

Additional observations from a re-analysis of the deposited data

Results flagged for a closer look

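In 2 of the 20 genes named by smallest p and 1 sign on 6 plates, 1 plate stood apart from the other 5, and it was the bled HSC plate with its 3 members both times. Nusap1 had a difference of 5.07 on that plate beside a median of 2.52 on the others, and Kif15 had 3.98 beside 2.09. Chance alone marks about 1 in 20 such groups where plates vary alike. Here the bled HSC plate had the lowest weight in the fit, 0.307 beside 1.60 for HSC plate 2. The 20 genes were also chosen on p and sign, so this rate does not carry over to them.

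Dgat1 had a membership effect that differed between gates, by -1.78 on the log2(FPKM + 1) scale (MPP1 minus HSC, limma adjusted p = 0.0205). It passed the detection filter only because members carried it.

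Wells labelled with no cell, which no comparison used, held 3 or more rule genes in 35.7% of cases on MPP1 plate 1, 30.8% on MPP1 plate 2 and 6.90% among bled MPP1. Plates of the HSC gate had 0 of 80.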

How the results depend on the processing

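The 10 genes of smallest p that were higher in members kept their direction under each alternative that tested them and lost the threshold only with no detection filter. The 20% filter left out all 10, so they were not tested there. The 10 lower genes also kept their direction but lost the threshold in 1 (Aldoa) to 10 (Shisa5) of at most 21 alternatives, and matching shared 5 of the 33 lower calls. Of 196 genes called higher and 33 called lower, the alternatives gave 740 and 11 with no allowance for genes detected, 110 and 8 by matching, 74 and 29 with a 20% filter, 104 and 11 with equal plate weights, and 67 and 4 with 2000 genes per cell. With no filter 0 and 0 were called of 13575 genes (limma, 1385 at an unadjusted p under 0.05). The lower count alone moved to 60 with a pseudocount of 0.1, 78 with detection in place of level, 19 with rule genes at FPKM 5, 16 with 6 or more rule genes and 13 after rescaling. Without the replicate block of plates 168 and 5 were called. Leaving out single plates that entered the fit gave 118 to 176 higher and 8 to 41 lower. The lowest counts came without HSC plate 2 for the higher genes and without the bled MPP1 plate for the lower. The lower count was 11, 17 and 20 without HSC plate 2, MPP1 plate 1 and the bled HSC plate. The causes were not tested. The gate difference had 0 calls with equal weights and 0 to 1 when plates were left out. Ccne2 turned to -0.079 with 6 or more rule genes. The share difference for members ran from 2.55 to 19.1 points when plates were left out. The replication share difference was 42.5 points for 10 or more genes and 53.4 for 20 or more, both chosen after seeing the data. Matched on genes detected the latter was 29.8 (exact sign-flip permutation p = 0.0625). Those matched shares were equal on MPP1 plate 2, at 56.25%. In bled MPP1 they were 87.0% in members and 84.1% in other cells, and the gap was wider on each of the remaining plates.

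Depth is unknown in FPKM, so a gene listed at 0 is not shown to be absent. Members had more genes detected than other cells on each plate, and the allowance for it rests on a straight line within a plate. One plate, HSC plate 3, gave only 2 members and entered no test of levels.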
